A study of Homo sapiens with 3 samples.

Results

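The 4 HOX gene clusters were examined within a capture design that lists the ends of human introns. The members are the listed intervals that lie fully inside 1 of 4 windows of the hg19 genome: 27.13 to 27.25 Mb on chromosome 7 (HOXA), 46.6 to 46.81 Mb on chromosome 17 (HOXB), 54.33 to 54.45 Mb on chromosome 12 (HOXC) and 176.94 to 177.06 Mb on chromosome 2 (HOXD). They number 207 of 377858 intervals, with 59 in HOXA, 56 in HOXB, 50 in HOXC and 42 in HOXD. The design was made to enrich RNA of K562 cells, a leukaemia line that has features of red cell and myeloid precursors, for intron ends, so that branchpoints could be found by sequencing. A branchpoint is the base inside an intron that attacks its 5′ splice site, so that the freed intron forms a lariat. The labels describe 3 biological replicates of this line, untreated as far as they say and all in 1 group, and the list is common to them. It says which regions were targets, not how much RNA was captured. No library was compared with another.

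HOX genes encode homeodomain transcription factors that give body segments their identity along the head-to-tail axis. They sit in clusters that arose by duplication, so that genes of the same number in different clusters are paralogs. Within a cluster all HOX genes lie on the same strand and are used in the order in which they lie, low numbers in anterior and early domains, high numbers in posterior and late ones. In blood, HOXA9, HOXA10 and HOXB4 are known for their activity in stem and progenitor cells, and HOXA9 is often highly expressed in acute leukaemias. A HOX gene typically has a short body with a single main intron, and the clusters also carry long noncoding RNA genes, among them HOTAIR in HOXC, HOTTIP in HOXA, and HAGLR in HOXD.

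GENCODE release 29, which lies on GRCh38, names 39 protein-coding HOX genes in the 4 clusters: 11 in HOXA, 10 in HOXB, 9 in HOXC and 9 in HOXD. The HOXA and HOXB genes are on the minus strand and the HOXC and HOXD genes on the plus strand. Between the outermost HOX genes, the same release has 10 long noncoding genes in HOXA, 7 in HOXB, 7 in HOXC (with a noncoding entry that shares the name HOXC5) and 4 in HOXD. Because no annotation of hg19 was used here, no interval below is assigned to a gene, and the gene content of the windows could not be checked against the list. The side of each cluster is named after the gene at that end, from the known order: the HOXB1 end is at the low coordinates, and the HOXA13, HOXC4 and HOXD1 ends are at the high ones.

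The clusters also share microRNA genes, some of them near-copies of each other. MIR196B lies in HOXA, MIR196A1 in HOXB and MIR196A2 in HOXC, while MIR10A lies in HOXB, MIR10B in HOXD and MIR615 in HOXC. The mature sequences below (RefSeq, GRCh38.p14, 5′ to 3′) show that the miR-196 forms of 3 clusters share their seed, bases 2 to 8, given in capitals. The miR-10 form has another seed.
hsa-miR-196a-5p: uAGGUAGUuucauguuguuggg
hsa-miR-196b-5p: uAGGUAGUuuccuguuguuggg
hsa-miR-10a-5p: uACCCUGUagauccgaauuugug
The miR-196 forms differ at 1 of 22 bases, outside the seed. MIR196A1 and MIR196A2 give the same 5p sequence. These microRNAs are part of the clusters' description: the list holds no value for them, and the sequences of the target intervals themselves are not printed, since no hg19 genome was used here.

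Each interval carries a score, a whole number from 0 to 125 in the list. What it measures is not stated in the labels or the file. A list of targets has no replicates. Of 377834 neighbouring pairs in the list, 18.2% had 1 interval at 0 and the other above it, so neighbours were not treated as independent, and all differences below are descriptions of the list without a test.

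HOXB and HOXC carried scores, while HOXA and HOXD were almost wholly at 0. The mean score per interval was 20.1 in HOXB (SD between intervals 30.04) and 11.8 in HOXC (SD 28.1), against 0.07 in HOXA (SD 0.52) and 0.10 in HOXD (SD 0.43). Of the summed score of the 4 clusters, 1723, HOXB held 65.3% and HOXC 34.2%. A score above 0 was given to 68 of the 207 intervals (32.9%), against a background of 52.8% in the whole list. By cluster these were 41 of 56 intervals in HOXB (73.2%) and 24 of 50 in HOXC (48.0%), with 1 of 59 in HOXA (1.69%) and 2 of 42 in HOXD (4.76%). Pooling the clusters therefore hides a split, with 65 of 106 intervals scored in HOXB and HOXC together (61.3%) and 3 intervals in HOXA and HOXD together (2.97%).

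**Figure D1:**
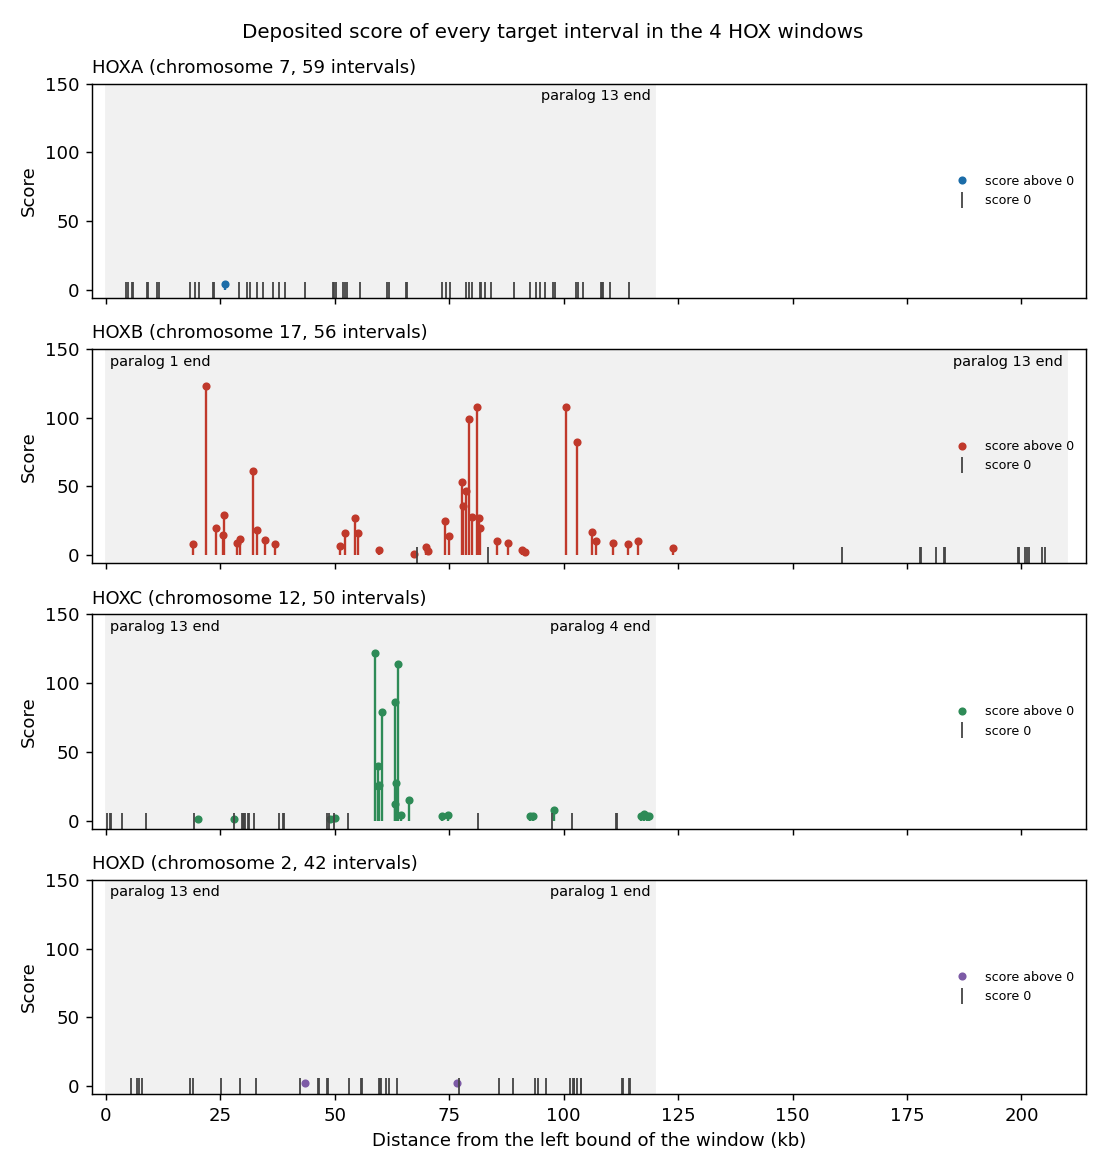
Deposited score of each of the 207 target intervals (vertical axis) by its distance in kb from the left bound of its window (horizontal axis), 1 panel per cluster. Coloured points are intervals that scored above 0, dark ticks those at 0, and the grey area is the window; HOXB is scored along its first 43 intervals, HOXC in a central block, and HOXA and HOXD hold 3 low points between them.

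The chromosomes that carry the clusters do not differ in this way in their scored share. On chromosome 7, 52.2% of all intervals scored above 0, on chromosome 17 62.9%, on chromosome 12 50.8% and on chromosome 2 48.3%. Their mean scores differed more. The rest of chromosome 17 (HOXB) had a mean of 9.99, chromosome 7 (HOXA) 7.54, chromosome 12 (HOXC) 6.18 and chromosome 2 (HOXD) 3.58. Relative to the rest of its own chromosome, the scored share was lower in HOXA (1.69%, against 52.4% on chromosome 7) and in HOXD (4.76%, against 48.4% on chromosome 2). HOXB stood 10.4 percentage points above the rest of chromosome 17 (73.2% against 62.9%). HOXC lay below the rest of chromosome 12 (48.0% against 50.8%) by fewer than 2 of its 50 intervals, yet its mean score was 5.62 higher (11.8 against 6.18). A score of 19 or more, which 10.4% of the whole list had, was given to 16 of 56 intervals in HOXB (28.6%), to 8 of 50 in HOXC (16.0%) and to none in HOXA and HOXD. The same score was reached by 16.3% of all intervals on chromosome 17, 9.83% on chromosome 12, 11.9% on chromosome 7 and 3.00% on chromosome 2.

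In HOXB, the targets on the HOXB1 side were scored and those toward HOXB13 were at 0. The outermost part of the HOXB1 side held no target, since the first interval began 18994 nt from the left bound. The first 43 intervals, from 46618994 to 46723965, cover 105 kb, and 41 of them scored above 0, with a mean of 26.2 and a median of 14. After these came the longest gap of any of the clusters, 36.8 kb from 46723966 to 46760780 without a target. All 13 intervals beyond it, from 46760781 to 46805353, scored 0. The run of 0 did not end at the window: it went on to 46847088 and held 19 intervals in all.

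The 2 intervals at 0 within this stretch, from 46667953 to 46668052 and from 46683394 to 46683493, divide it into 3 runs of scored intervals. The first run, from 46618994 to 46667485, had 17 intervals with a mean of 22.6 and held 34.2% of the cluster's summed score. It contained the highest score of the cluster, 123 in a 107 nt interval from 46621776 to 46621882, and also 61 from 46632203 to 46632302. The second run, from 46669819 to 46681840, had 12 intervals with a mean of 38.8 and held 41.4% of the score. It included 108 from 46680976 to 46681075 and 99 from 46679337 to 46679436. The third run, from 46685458 to 46723965, also had 12 intervals, with a mean of 22.8 and 24.4% of the score. Its high values stood at 46700498 to 46700597 with 108 and at 46703014 to 46703113 with 82, and its other intervals scored from 2 to 17. The 5 highest intervals held 46.2% of the HOXB score. The 16 intervals of 19 or more were spread over all 3 runs, between 46621776 and 46703113.

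HOXC had its score in a short central block. The 13 consecutive intervals from 54388802 to 54404872 (16.1 kb) scored from 3 to 122 with a median of 26, and held 94.4% of the cluster's score. All 8 HOXC intervals of 19 or more were among them. The highest were 122 from 54388802 to 54388901, 114 in an 87 nt interval from 54393816 to 54393902, 86 from 54393052 to 54393151, 79 from 54390353 to 54390452 and 40 from 54389516 to 54389615. The other 37 intervals had a mean of 0.89 and reached 8 at most, and 11 of them scored above 0.

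The sides of HOXC were not alike in these low scores. Toward HOXC13, the 13 intervals from 54358068 to 54378746 and the first 6 of the window, from 54330154 to 54349424, were at 0. Besides 0, only scores of 1 and 2 stood between 54350012 and the central block. Toward HOXC4, scores of 3 to 8 alternated with 0, and the last 4 intervals, from 54446844 to 54448633, scored from 3 to 5. HOXC changed between 0 and a score above 0 at 13 of its 49 neighbouring pairs. In HOXB the same happened at 5 of 55 pairs, so its scored and unscored intervals were less mixed.

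HOXA had a single scored interval, with a score of 4, from 27155964 to 27156063. The 45 intervals to its right, from 27159034 to 27244330, formed the longest run of 0 within any of the 4 clusters, and the 13 to its left, from 27134415 to 27153713, were also at 0. The right run continued beyond the window to 27419218 and reached 63 intervals over 260.2 kb. It thus held the HOXA13 end and the next listed targets on that side.

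HOXD had 2 scored intervals, each with a score of 2, from 176983582 to 176983681 and from 177016796 to 177016895. They divide the cluster into runs of 10, 13 and 17 intervals at 0. The targets on both sides of HOXD were scored. The nearest one outside on the left, 78.3 kb away from 176867139 to 176867238, scored 20, and the nearest on the right, 79.9 kb away from 177134399 to 177134498, scored 22. In flanks as long as the window, 14 of 17 intervals scored above 0 on the left (82.4%) and 7 of 7 on the right.

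A split of each window at its midpoint set the HOXB1 and HOXC4 sides above the opposite ones. The HOXB1 side had a mean score of 28.8 over 37 intervals, against 3.11 over 19 intervals on the HOXB13 side. Scores above 0 were given to 94.6% of intervals on the HOXB1 side and 31.6% on the HOXB13 side. In HOXC the side toward HOXC4 had a mean of 17.7 over 21 intervals, against 7.52 over 29 intervals toward HOXC13, and the shares above 0 were 76.2% and 27.6%. The HOXC midpoint cuts through the central block, so these means depend on where the line falls. In HOXD each side held 1 scored interval (1 interval crosses the HOXD midpoint and is in neither side).

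The clusters were dense in targets. HOXA had 46.9 targeted nt per kb of its window, HOXC 41.6, HOXD 34.9 and HOXB 25.8. The rest of their chromosomes, measured from the first to the last interval, had 11.4 (chromosome 7), 15.6 (chromosome 12), 12.3 (chromosome 2) and 24.5 (chromosome 17). HOXA was thus 4.10-fold denser than the rest of its chromosome, HOXD 2.84-fold, HOXC 2.67-fold and HOXB 1.05-fold. Set beside all non-overlapping windows of the same length with at least 1 interval, HOXA was denser than 92.6%, HOXC than 90.2%, HOXD than 85.6% and HOXB than 79.7%.

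The order of the clusters by density was not their order by score. The least dense cluster, HOXB, had the highest mean score, and the densest, HOXA, was almost wholly at 0, as was HOXD. HOXA and HOXD had the same summed score, 4. The mean of HOXA was lower than that of HOXD only because it was taken over 59 intervals, against 42. Among same-length windows with at least 20 intervals, 94.3% had a lower mean score than HOXB and 78.5% a lower one than HOXC, against 14.0% for HOXD and 11.5% for HOXA. Windows of 120 kb in which every interval scored 0 made up 5.95% of 6872, so mean scores as low as that of HOXA were not rare among them. Those windows were not matched to HOXA in number of intervals: they needed only 20, against its 59. With 4 clusters no correlation was computed.

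**Figure D2:**
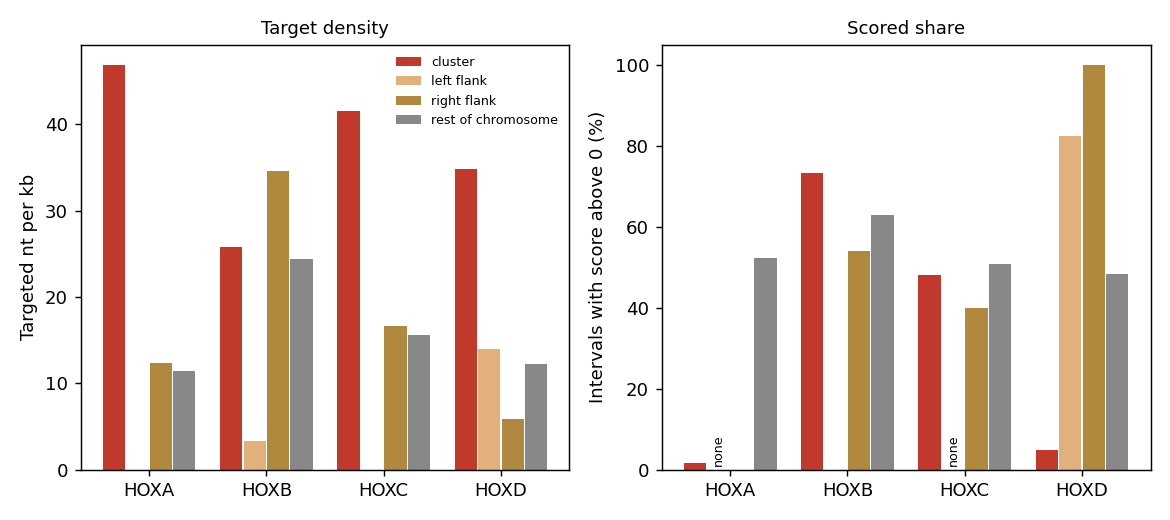
Left, targeted nt per kb, and right, share of intervals scoring above 0 in percent, for each cluster, its left and right flank of the same length, and the rest of its chromosome (bars start at 0; "none" marks flanks that hold no interval). HOXA, HOXC and HOXD stand above their flanks in density, HOXB stands below its right flank, and HOXA and HOXD have the lowest cluster bars in the scored share.

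The low density of HOXB came with a large part of its window that held few targets. Of its 21 bins of 10 kb, 5 held no interval, whereas every one of the 12 bins in each other cluster held at least 1. The 43 intervals before the longest gap had 39.2 targeted nt per kb of their own span, and the 13 after it 29.2. By the same measure, the parts before and after the longest gap had 51.4 and 60.5 in HOXA. They had 48.7 and 40.0 in HOXC, and 41.0 and 47.8 in HOXD. Both parts of HOXB were thus less dense than those of the other clusters, also without the longest gap. This division was chosen after the values were seen. The longest gaps in the other clusters were 7.68 kb in HOXA (27195785 to 27203460), 11.4 kb in HOXC (54411300 to 54422706) and 13.1 kb in HOXD (177003725 to 177016795).

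The windows lay apart from other targets on at least 1 side. The left flank of HOXA and that of HOXC, each 120 kb long, held no interval: the nearest target lay 230.4 kb from the first HOXA interval (26903881 to 26903980, score 3) and 174.5 kb from the first HOXC interval (54155512 to 54155611, score 0). On the left of HOXB the nearest lay 111.6 kb away (46507336 to 46507435, score 0). The right side was closer in HOXC, at 3.72 kb (54452350 to 54452449, score 0), and in HOXB, at 5.13 kb (46810486 to 46810585, score 0), and was 35.3 kb away in HOXA (27279595 to 27279694, score 0). The members next to those bounds were at 46805254 to 46805353 in HOXB (score 0), at 27244231 to 27244330 in HOXA (score 0) and at 54448534 to 54448633 in HOXC (score 3). The nearest members to the left bounds were at 27134415 to 27134514 in HOXA (score 0), 46618994 to 46619093 in HOXB (score 8), 54330154 to 54330253 in HOXC (score 0) and 176945567 to 176945666 in HOXD (score 0). In HOXD the last member ran from 177054411 to 177054535 (score 0).

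The median gap between neighbours was 1179 nt in HOXA, 1684 nt in HOXB, 594 nt in HOXC and 1036 nt in HOXD, against 613.5 nt, 278 nt, 500 nt and 534 nt in the rest of chromosomes 7, 17, 12 and 2. Gaps of at most 1000 nt made up 44.8% in HOXA, 41.8% in HOXB and 48.8% in HOXD, against 56.2%, 66.7% and 57.8% in the rest of chromosomes 7, 17 and 2. In HOXC the share was 59.2%, against 59.1% in the rest of chromosome 12, so the lower share did not hold for that cluster. Among gaps of at most 1000 nt, the median was 410 nt in HOXA, 467 nt in HOXB, 194 nt in HOXC and 247.5 nt in HOXD, while the whole list had 148 nt. The shortest gap was 15 nt, in HOXD.

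Most members were 100 nt wide, as the protocol gives for an intron end. This width was found in 32 of 42 intervals in HOXD (76.2%), 48 of 59 in HOXA (81.4%), 41 of 50 in HOXC (82.0%) and 50 of 56 in HOXB (89.3%), with 87.7% as the background of the whole list. The rest of their chromosomes had 81.0% (chromosome 2), 90.3% (7), 88.5% (12) and 86.7% (17). In intervals these are small differences: HOXA would have needed 53.3 full-width intervals, in place of 48, to match chromosome 7.

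HOXD held some wide intervals and none of 96 to 99 nt. Its 5 intervals more than 1 nt over full width (11.9%, against 2.89% in the rest of chromosome 2) were 118, 125, 140, 170 and 199 nt wide and all scored 0. The widest ran from 177017137 to 177017335. An interval of such a width can hold a short intron whole, or joined ends of neighbouring introns. Intervals of 96 to 99 nt, which made up 9.28% of the rest of chromosome 2, were absent from its 42 members, where that share would give 3.90. The left flank of HOXD held 4 of them among 17 intervals. HOXB and HOXC also held none, but this class made up only 0.69% of the rest of chromosome 17 and 1.23% of the rest of chromosome 12.

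In HOXA the departures from full width were mostly short. It had 9 intervals under 100 nt, of 3, 10, 42, 61, 71, 82, 97, 98 and 99 nt, and 2 wider ones, 1 nt over full width and 162 nt. HOXB had 15, 31, 33 and 94 nt on the short side and 107 and 132 nt on the wide side. All 6 of these intervals scored above 0, but all lay before the longest gap, where 41 of 43 intervals did so (95.3%). The narrowest, 15 nt from 46681495 to 46681509, scored 27, and the widest, from 46685458 to 46685589, scored 10. HOXC had 60, 76, 86, 87 and 87 nt, a pair that was 1 nt over full width, and 105 and 187 nt. Its widest interval, from 54359872 to 54360058, was at 0, and its narrowest, from 54447601 to 54447660, scored 5. The narrowest member of all was a 2 nt interval in HOXD from 177001827 to 177001828, followed by 3 nt in HOXA from 27135710 to 27135712, both at 0. The widest in HOXA ran from 27224865 to 27225026 and scored 0.

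**Figure D3:**
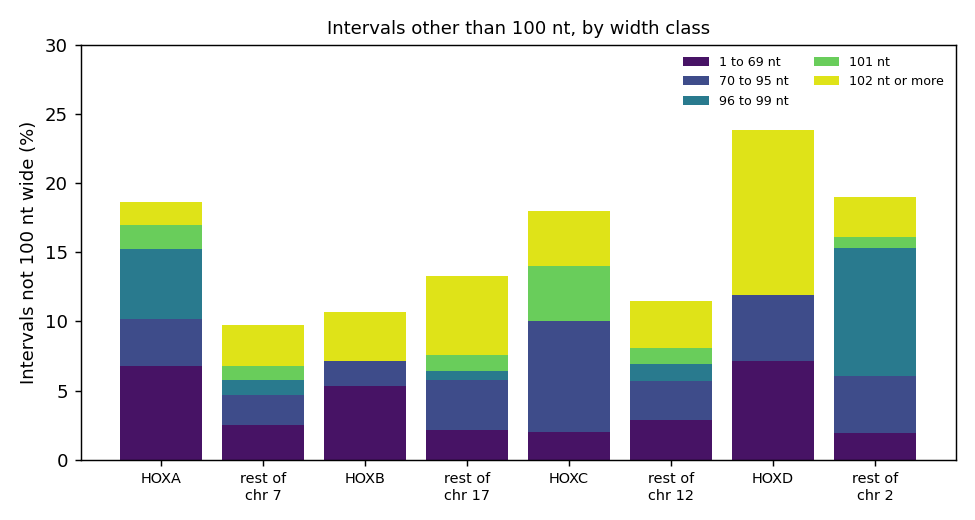
Share of intervals that are not 100 nt wide, in percent, stacked by width class, for each cluster and for the rest of its chromosome. HOXD has the tallest bar, with 11.9% more than 1 nt over full width, and HOXB the lowest of the clusters. HOXB, HOXC and HOXD have none at 96 to 99 nt.

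The list gives each interval a running number, and 2 of the 209 numbers spanned by the clusters were missing (0.96%), against 1.24% in the whole list. Both were in HOXB. The first fell between the interval from 46618994 to 46619093 (score 8) and the one from 46621776 to 46621882 (score 123). The second fell between the one from 46674997 to 46675096 (score 14) and the one from 46677709 to 46677808 (score 53). HOXA, HOXC and HOXD missed none.

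The number of intervals was set beside the introns that GENCODE release 29 has between the outermost HOX genes. That release holds 82 distinct introns in HOXA, 86 in HOXB, 45 in HOXC and 48 in HOXD, of which 39, 38, 24 and 22 belong to protein-coding HOX genes. Laying out the 100 nt ends of these introns and removing exons gave 54 intervals in HOXA, 77 in HOXB, 47 in HOXC and 42 in HOXD. The deposited list had 109.3% as many in HOXA, 72.7% in HOXB, 106.4% in HOXC and 100.0% in HOXD. These shares mix a later release with removal steps and with windows that reach beyond the outermost genes, so they give only the scale.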

How the data were processed

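The authors designed targets at the 100 nt ends of introns in GENCODE release 12, per the labels' protocols; they removed exons and parts highly transcribed in K562 cells, and repeats were left out. The submitters' processing notes name hg19, Bowtie2, TopHat2 and bedtools without a role. The deposited list gives each interval a score, a whole number from 0 to 125 with no stated meaning or normalisation. The value 125 was the highest in the rest of each of chromosomes 7, 17, 12 and 2. Whether it is a limit of the score is not stated. No reads were analysed, and the depth behind the score is unknown.

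Intervals fully inside a window were members. Coordinates are hg19 and 1-based. Widths, gaps (unlisted bases between neighbours), targeted nt per kb, mean and median score and shares above 0 were computed per cluster, for flanks of equal length, for the rest of the chromosome and for windows of equal length. The list has no replicates, so no test was run. The regions named were the 5 highest scores above 0, the longest run of 0, the widest and narrowest interval, the longest gap and the intervals next to each bound. Other intervals were named after their values were seen. The members and comparisons were chosen with earlier results of these data known. HOX gene and microRNA names came from GENCODE release 29 and RefSeq, on GRCh38, by symbol and not by hg19 coordinate. All 6 microRNA genes looked up matched. Introns and long noncoding genes were those that GENCODE release 29 places between the outermost HOX genes. The code was tested on simulated intervals. Values were computed with pandas 2.3.3 and numpy 2.4.6 under Python 3.11.15, and figures drawn with matplotlib 3.10.9.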

Additional observations from a re-analysis of the deposited data

How the results depend on the processing

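Of 108 values recomputed under alternatives, 95 stayed within the limits used. These were a 1.5-fold change or, for shares, the 95% Wilson interval, which covers counting error only. The Wilson interval takes neighbouring intervals as independent, which was not assumed above, so it served only as a limit and not as a test. Only the difference in mean score between the sides of a cluster could change direction, and none did. Values under any overlap with the window equalled the reported ones. Merging neighbours up to 10 nt apart could not change a count, because the shortest gap was 15 nt. The 95 therefore include values that an alternative left untouched. Counting any overlap with the window, or moving its bounds outward by 20 kb or inward by 10 kb, left the orders of the clusters by count, density, mean score and share above 0 as reported. The order by share of full width was not stable, since HOXA and HOXC changed places with bounds moved inward and with 90 to 110 nt as full width. Without its highest interval, HOXA had a mean score and share above 0 of 0, and HOXD a mean of 0.049. With the median in place of the mean, chosen after the data were seen, HOXB had 9 and HOXA, HOXC and HOXD had 0, so the mean of HOXC rests on its central block. Split at the median interval, the side of HOXC4 exceeded that of HOXC13 by 23.2 in mean score, against 10.2 at the midpoint. The median split falls just before the central block, at 54388802, and so puts the whole block on the HOXC4 side. With the same split, the sides of HOXD differed by 0. The median of gaps up to 1000 nt was 410 nt in HOXA, 467 nt in HOXB, 194 nt in HOXC and 247.5 nt in HOXD, since the limit removes long gaps. No paired analysis was possible because the 3 libraries form 1 group and the scores are not given per library, so no replicate could be left out either.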
